A study of Oryza sativa with 40 samples.

Results

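F-box proteins are the substrate receptors of SCF ubiquitin ligases, complexes in which SKP1 joins the F-box protein to a cullin scaffold. The F-box binds SKP1, and a second domain such as leucine-rich repeats, kelch repeats or a tubby domain binds the protein to be ubiquitinated and degraded. In plants some of them perceive hormones directly, among them the auxin receptors TIR1 and AFB2 and the jasmonate receptor COI1, and others are blue light sensors that act on clock proteins.

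The 321 F-box genes described here are those whose product name in the deposited table holds the term F-box in any case, out of 19308 genes. A total of 322 names matched, and the single match left out by rule was LOC_Os11g34460, the rice FKF1 gene. Of the 321 genes, 167 carry the FBX code of the rice annotation (an F-box with no other named domain), 34 the FBL code (leucine-rich repeats), 23 FBK (kelch repeats), 19 FBDUF (a domain of unknown function), 17 FBO (another domain) and 12 FBT (tubby). The smaller codes are FBD with 7 genes, FBA and FBLD with 3 each and FBW with 2, while 34 genes have no class code. Symbols such as TIR1 or D3 come from a list of published rice locus identifiers, since the table gives product names only.

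Leaves of the rice cultivar IR64, an indica variety grown in hydroponic tanks, were sequenced as total RNA from stranded libraries depleted of ribosomal RNA. The hot groups (2, 6 and 24 h after a shift to 40/35 °C, day and night) and the cold groups (2, 6 and 24 h after a shift to 25/20 °C) were compared with the warm groups, kept at 30/25 °C and taken at 0, 2, 6 and 24 h. Each of the 10 groups has 4 libraries, n = 4 throughout, from the middle section of leaves that had fully expanded before the shift and were harvested by day. All plants were of the same cultivar, and the labels name no mutant, transgene or chemical agent. The labels do not say which tank or plant gave which library, so the p-values measure the spread between these libraries, which may be technical.

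Libraries held 1830817 to 9628451 reads assigned to genes, with a median of 5853252, and 0.459% to 0.745% of those reads fell on the F-box genes. A library had reads on 285 to 321 of the 321 genes, and 254 genes had at least 1 read in all 40 libraries. Warm 24 h replicate 3 held the fewest reads, and 115 of the 321 genes had 3 reads or fewer in it. Mean correlations with the other libraries of the group were lowest in warm 0 h replicate 1, 0.860, and hot 24 h replicate 1, 0.894. These are called the libraries that stood apart, and the first also gave the highest F-box share of reads, 0.745%. Hot 24 h replicate 1 was close to its group, where replicates 2, 3 and 4 had 0.9053, 0.9319 and 0.9155. All hot 24 h libraries were below those of hot 6 h, at 0.9588 to 0.9638. Warm libraries were sequenced in lanes 1 and 2, hot ones in lanes 2 and 3 and cold ones in lanes 3 and 4, as read from the library names, so lane moved with temperature. Leaf markers matched the labelled tissue, since the summed level of 4 mesophyll genes (photosynthesis genes of the leaf) lay between 7433 and 184769 CPM in every library. None of these genes, nor the guard cell gene SLAC1, nor any of 4 vascular and secondary wall genes, passed the test in any shift. This does not show stable levels. The 4 vascular and wall genes had median log2 changes of -2.10, -1.11 and -0.01 at hot 2, 6 and 24 h. In the cold they were -0.30, -0.79 and -1.93. Their summed level was 15.6 to 33.4 CPM at hot 6 h, 27.9 to 48.0 CPM at warm 6 h and 10.7 to 247 CPM at hot 24 h. Of 32 dividing cell markers (core histone genes and a cyclin B gene), 3 passed in hot 2 h leaves (1 up, 2 down) and 3 in hot 6 h leaves, all down. For these markers, 8.2% and 6.9% are the matching shares of all genes. Their summed level was 682 to 908 CPM at hot 2 h and 744 to 1034 CPM at warm 2 h, and 557 to 616 CPM at hot 6 h against 547 to 926 CPM at warm 6 h, and their part in the results was not tested. In whole leaf sections, fewer cells of a type and less RNA per cell cannot be told apart.

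Levels are given as CPM (reads of a gene scaled to library size) per library, from the read counts recovered from the deposited values, and are compared for 1 gene at a time because no gene lengths were used. Changes are differences of the deposited log2 values ± SE from a limma fit over all 19308 genes, and a gene passed where its p, adjusted by the Benjamini-Hochberg method across the whole table, was under 0.05. Mean log2 levels ran from -1.63 to 8.33 with a median of 2.56, and 40 F-box genes lay below 0. Coordinates are those of the table, on rice build IRGSP-1.0 per the submitters' processing notes. Chromosome 2 carried more F-box genes than any other, 44 of the 321, whereas chromosomes 11 and 10 had the highest share of their measured genes in the family, 3.17% and 3.07%, and chromosome 12 the lowest, 0.943%. In all, 72 members lie next to another member in gene order, and 6 overlap another gene of the table.

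The first question was which F-box genes change in leaves moved to heat. After 2 h at the hot temperature 17 of the 321 genes (5.3%) passed against warm 2 h leaves, 6 higher and 11 lower, and 8 of the 17 changed at least 2-fold. Among all genes 8.2% passed, 3.63% higher and 4.58% lower, so the F-box share was no higher than that of the whole table. The median change was -0.002 over the F-box genes and 0.01 over all genes. Higher were 2 kelch-repeat genes, the auxin receptor AFB2 and 3 FBX genes, while lower were, among others, the light sensors ZTL1 and ZTL2, the senescence-linked gene FBK12 and a set of FBX genes. The hot and warm libraries did not overlap for 52 F-box genes (16.2%, against 20% of all genes). With quantile scaling 10 were higher and 11 lower, with CPM plus 1 or voom weights 11 and 12, and without the libraries that stood apart 31 passed, 13 higher and 18 lower.

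**Figure D1:**
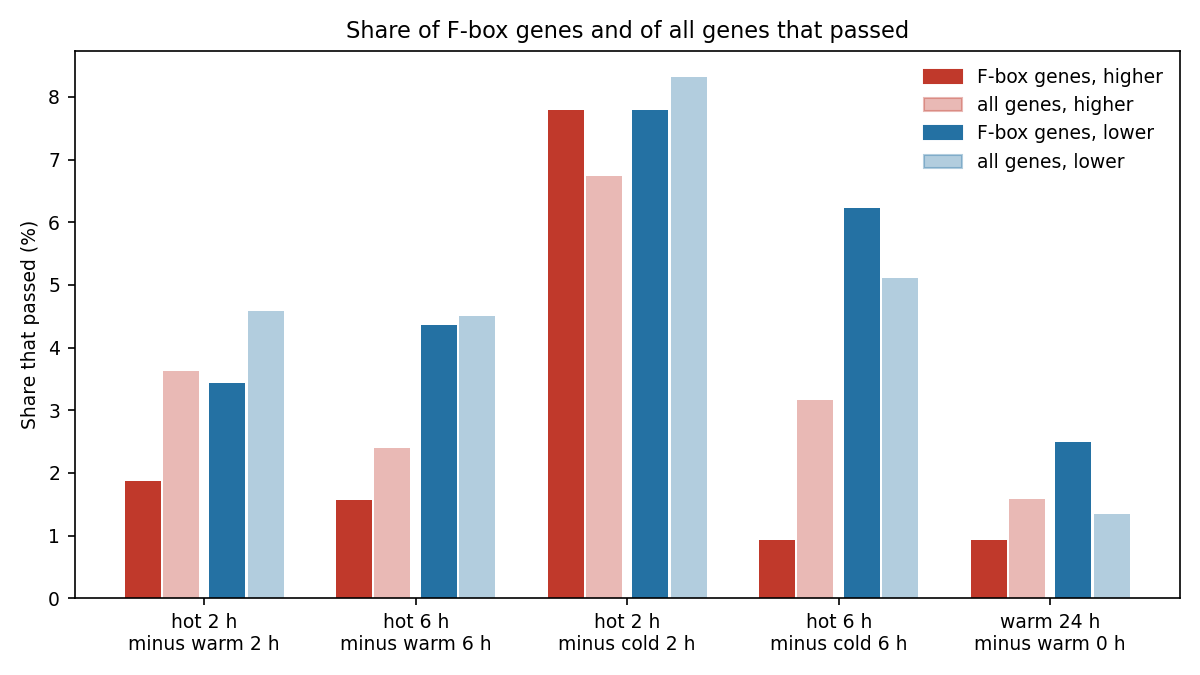
Percentage of the 321 F-box genes and of all 19308 genes that passed (limma, adjusted p under 0.05), shown as higher and lower calls, for the 5 comparisons of 2 groups in which any gene passed. In hot 2 h minus cold 2 h the F-box bars are at 7.79% higher and 7.79% lower, against 6.73% and 8.32% of all genes. In hot 2 h minus warm 2 h they are at 1.87% higher and 3.43% lower, below the 3.63% and 4.58% of all genes.

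Among the hormone receptors at 2 h, AFB2 (LOC_Os04g32460, chromosome 4, 19453728 to 19458223, minus strand), an F-box protein that binds auxin together with its AUX/IAA substrates, measured 42.01, 38.5, 46.2 and 45.7 CPM in hot 2 h leaves and 28.04, 33.7, 31.3 and 26.01 CPM in warm 2 h leaves. All 4 hot libraries lay above all 4 warm ones. The rise was 1.45-fold (log2 change 0.54 ± 0.16, limma adjusted p = 0.0324). The call ended without hot 2 h replicates 1, 3 or 4 or warm 2 h replicates 1, 3 or 4 (log2 change 0.47 to 0.56). TIR1 (LOC_Os05g05800, chromosome 5, 2892496 to 2899113, minus strand), its close relative and the founding auxin receptor of the family, measured 57.01, 46.6, 58.9 and 49.9 CPM in hot 2 h leaves, against 84.99, 71.3, 63.3 and 73.8 CPM in warm 2 h leaves. The groups did not overlap, with the hot libraries on the low side, but the change of -0.46 ± 0.21 did not pass (limma adjusted p = 0.163).

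The light sensors moved the other way from AFB2. ZTL2 (LOC_Os06g47890, chromosome 6, 28969488 to 28974576, minus strand) belongs to the ZEITLUPE type, which binds clock proteins in a manner set by blue light in Arabidopsis. It measured 109.8, 127, 120.1 and 109.5 CPM in hot 2 h leaves and 155, 180.5, 144 and 172 CPM in warm 2 h leaves, with no overlap. Its log2 change was -0.48 ± 0.13 (limma adjusted p = 0.0221), and the call ended without hot 2 h replicates 1 or 4 or warm 2 h replicates 2 or 4 (log2 change -0.45 to -0.43). For ZTL1 (LOC_Os02g05700, chromosome 2, 2798804 to 2803831, plus strand), the levels were 54.2, 74.4, 64.2 and 61.7 CPM in hot 2 h leaves and 83.99, 98.5, 73.1 and 97.02 CPM in warm 2 h leaves, where the highest hot library exceeded the lowest warm one. Its log2 change was -0.47 ± 0.15 (limma adjusted p = 0.0462), and the call ended without hot 2 h replicates 1, 3 or 4 or warm 2 h replicates 1, 2 or 4 (log2 change -0.49 to -0.40).

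FBK12 (LOC_Os03g07530, chromosome 3, 3833954 to 3836748, plus strand), a kelch-repeat F-box protein known in rice for its part in leaf senescence and seed size, measured 41.8, 62.7, 45.7 and 41.04 CPM in hot 2 h leaves and 79.5, 85.6, 88.1 and 79.4 CPM in warm 2 h leaves. Every hot library was below every warm library. The log2 change was -0.82 ± 0.25 (limma adjusted p = 0.0374), and the call ended without hot 2 h replicates 1, 3 or 4 or warm 2 h replicates 1, 2, 3 or 4 (log2 change -0.84 to -0.75).

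**Figure D2:**
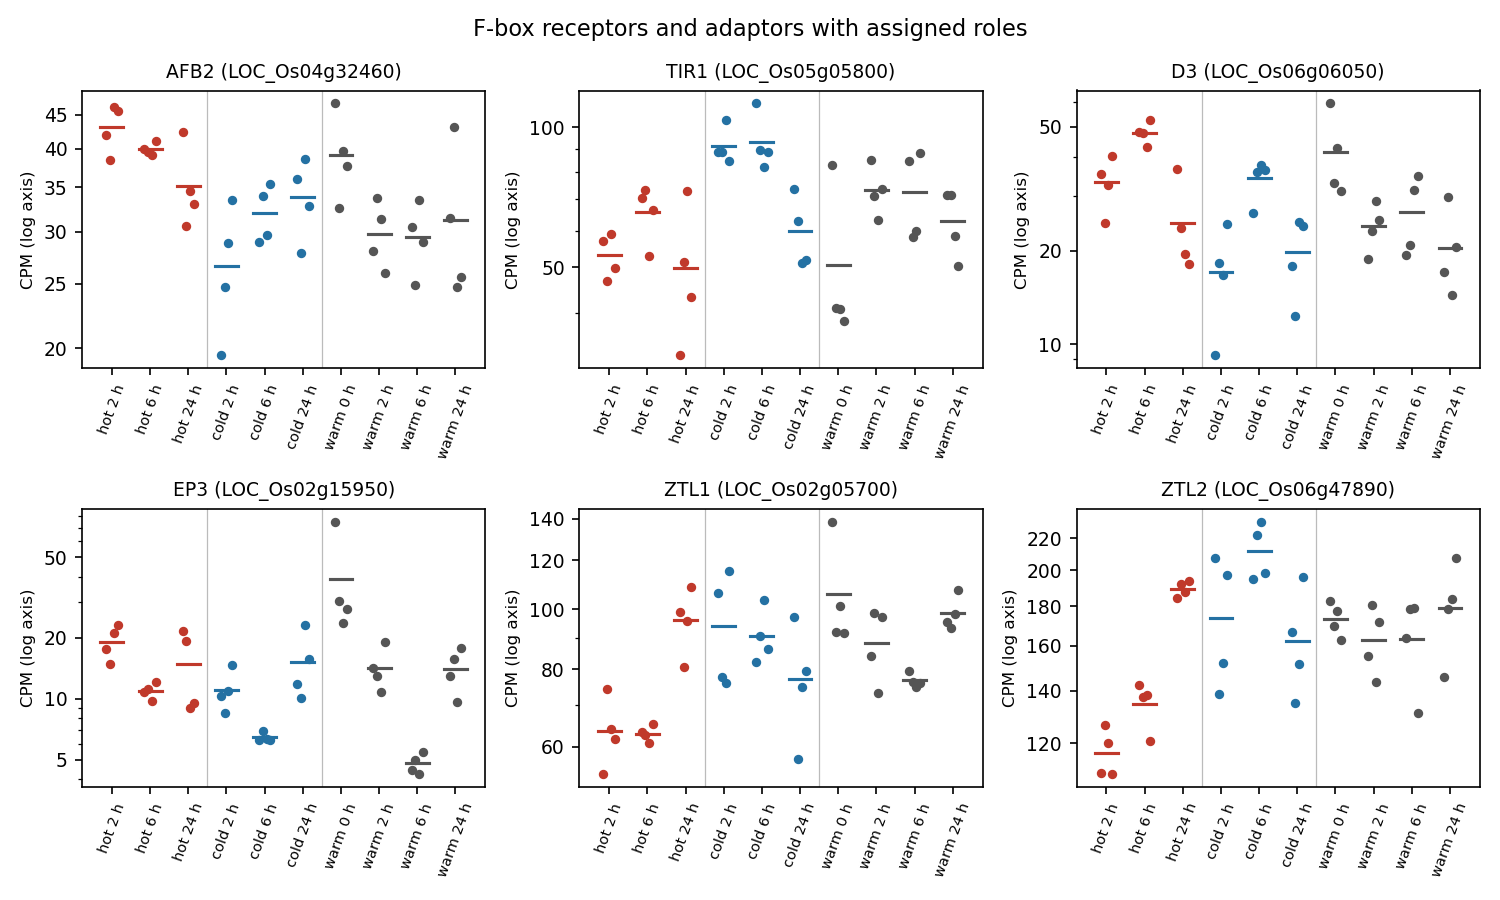
Level in CPM (log axis) of AFB2, TIR1, D3, EP3, ZTL1 and ZTL2 in each library of the hot, cold and warm groups, with bars at the group mean (n = 4). The hot 2 h libraries of AFB2 lie at 38.5 to 46.2 CPM, above the warm 2 h libraries, the highest of which is at 33.7 CPM, and those of ZTL2 lie at 109.5 to 127 CPM, below the warm 2 h libraries at 144 to 180.5 CPM.

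Among the members with no hormone or light role in the list, the kelch-repeat gene OsFBK14 (LOC_Os04g31120, chromosome 4, 18602664 to 18610312, minus strand) had the smallest adjusted p of the 2 h heat response. It measured 119, 107, 149 and 162 CPM in hot 2 h leaves, against 61.5, 95.7, 48.7 and 65.1 CPM in warm 2 h leaves. The groups did not overlap, and the rise was 2.01-fold (log2 change 1.01 ± 0.21, limma adjusted p = 0.00267). The call held in all 8 fits that left out 1 of these libraries, with log2 changes of 0.86 to 1.19.

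A further 3 FBX genes at low levels rose by similar factors. OsFBX230 (LOC_Os07g13890, chromosome 7, 7942756 to 7944922, plus strand), next to another F-box gene, measured 10.5, 8.90, 6.71 and 9.24 CPM in hot 2 h leaves and 5.78, 4.59, 2.98 and 3.52 CPM in warm 2 h leaves, and its log2 change of 1.07 ± 0.26 (limma adjusted p = 0.00808) passed in all 8 fits with 1 library left out. OsFBX290 (LOC_Os08g29400, chromosome 8, 18027778 to 18031385, plus strand) measured 3.14, 4.10, 4.85 and 3.53 CPM at hot 2 h and 1.76, 1.90, 1.79 and 1.55 CPM at warm 2 h. Its change was 1.102 ± 0.28 (limma adjusted p = 0.0129) and did not pass without hot 2 h replicate 3 (log2 change 0.99). OsFBX181 (LOC_Os06g02100, chromosome 6, 623462 to 626095, minus strand) measured 4.01, 3.92, 4.10 and 4.21 CPM at hot 2 h and 2.26, 2.53, 1.19 and 1.69 CPM at warm 2 h, and its log2 change of 1.09 ± 0.28 (limma adjusted p = 0.0134) was lost without warm 2 h replicate 3 (log2 change 0.91). In each of these genes the lowest hot library stood above the highest warm one.

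The largest fall at 2 h was that of OsFBX387 (LOC_Os10g34300, chromosome 10, 18294680 to 18297198, minus strand), at 1.92, 2.14, 1.31 and 2.04 CPM in hot 2 h leaves and 4.78, 4.59, 5.07 and 5.91 CPM in warm 2 h leaves. Its log2 change was -1.44 ± 0.34 (limma adjusted p = 0.00810), and it passed in all 8 fits with 1 library left out. At 6 h the same gene measured 3.16, 5.33, 5.63 and 3.505 CPM in hot leaves and 3.45, 4.85, 5.25 and 4.10 CPM in warm leaves, so its groups overlapped and the change was -0.03 (limma adjusted p = 0.978). OsFBX169 (LOC_Os05g43490, chromosome 5, 25283108 to 25286695, plus strand) measured 1.74, 3.38, 3.54 and 2.45 CPM at hot 2 h and 7.67, 3.80, 4.48 and 6.75 CPM at warm 2 h. Its hot libraries were again all below the warm ones, the change was -1.01 ± 0.29 (limma adjusted p = 0.0284), and the call ended without hot 2 h replicates 1 or 4 or warm 2 h replicates 1 or 4 (log2 change -0.96 to -0.81).

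By class, the 2 h calls fell on 7 of the 167 FBX genes (3 higher, 4 lower), 3 of the 23 FBK genes (2 higher, 1 lower), 3 of the 17 FBO genes (all lower), 2 of the 34 FBL genes (1 each way) and 2 of the 34 genes with no class code (both lower). The remaining members that passed were OsFBK2 with a change of 0.57, LOC_Os08g33140 with -0.77, and OsFBX332, OsFBL19, OsFBO16, LOC_Os03g02560 and OsFBX448, which passed at 6 h as well. OsFBK2 passed in 4 and LOC_Os08g33140 in 1 of the 8 fits that left out 1 library, and both are outside the rule for named genes. With sequencing lane as a term in the fit, 4 of the 17 genes still passed, namely OsFBK14, OsFBX181, OsFBK2 and AFB2, and leaving out 1 library gave 5 to 18 calls, fewest without hot 2 h replicate 4. Within lane 2, which held 2 hot and 1 warm library of this hour, the median size of the 17 changes in the called direction was 0.83 against 0.82 over all lanes. These libraries are among those that gave the calls, so the value is a description and no check on lane.

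After 6 h of heat 19 of the 321 genes (5.92%) passed against warm 6 h leaves, 5 higher and 14 lower, where 6.9% of all genes passed, 2.39% higher and 4.51% lower. Higher were the strigolactone signalling gene D3, the panicle gene EP3, OsFBK14 and 2 members at very low levels in warm leaves. Lower were OsFBX5, OsFBX58, OsFBX448 and 11 others. The median change was -0.009 for the F-box genes and -0.04 for all genes, and 50 F-box genes (15.6%, against 20.6% of all genes) had hot and warm libraries that did not overlap. With lane as a term in the fit none of the 19 passed, and leaving out 1 library gave 11 to 19 calls, fewest without hot 6 h replicate 3 or warm 6 h replicate 1. Within lane 2, with 1 hot and 2 warm libraries, the median size of the 19 changes was 0.86 (0.94 over all lanes), again from libraries that gave the calls. With quantile scaling 10 were higher and 14 lower, with voom weights 9 and 13, with CPM plus 1 7 and 12, and without the libraries that stood apart 31 passed, 13 higher and 18 lower.

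D3 (LOC_Os06g06050, chromosome 6, 2780715 to 2785271, plus strand) is the leucine-rich repeat F-box protein that works with the receptor D14 in strigolactone signalling. It measured 48.1, 47.6, 43.1 and 52.4 CPM in hot 6 h leaves and 19.4, 20.9, 31.3 and 34.8 CPM in warm 6 h leaves. The hot libraries were all above the warm ones, and the rise was 1.85-fold (log2 change 0.89 ± 0.27, limma adjusted p = 0.0368). The call ended without hot 6 h replicates 1, 2, 3 or 4 or warm 6 h replicates 1 or 2 (log2 change 0.75 to 0.94). At 2 h the change was 0.46 ± 0.27 and did not pass (limma adjusted p = 0.301).

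EP3 (LOC_Os02g15950, chromosome 2, 9042076 to 9046141, plus strand), the ERECT PANICLE3 gene of rice, measured 10.8, 11.2, 9.79 and 12.1 CPM in hot 6 h leaves and 4.46, 4.98, 4.25 and 5.47 CPM in warm 6 h leaves. The lowest hot library was well above the highest warm one. The rise was 2.27-fold (log2 change 1.18 ± 0.29, limma adjusted p = 0.00867) and passed in all 8 fits with 1 library left out, with changes of 1.14 to 1.25. At 2 h, EP3 overlapped between the groups, with a change of 0.44 ± 0.29 that did not pass (limma adjusted p = 0.374).

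Among the falls at 6 h, OsFBX58 (LOC_Os02g45320, chromosome 2, 27548399 to 27551592, plus strand) was the largest. It measured 10.1, 11.6, 9.49 and 8.37 CPM in hot 6 h leaves and 47.2, 23.8, 22.8 and 15.2 CPM in warm 6 h leaves. The change came to -1.34 ± 0.30 (limma adjusted p = 0.00416). The warm libraries were widely spread but all above the hot ones, and the call held in all 8 fits with 1 library left out. OsFBX5 (LOC_Os01g17390, chromosome 1, 10003950 to 10007768, plus strand), among the F-box genes with the highest levels, measured 34.2, 26.1, 28.5 and 25.5 CPM in hot 6 h leaves and 56.5, 80.8, 80.3 and 35.7 CPM in warm 6 h leaves. Its groups did not overlap either, and the change of -1.08 ± 0.23 (limma adjusted p = 0.00248) passed in all 8 fits. OsFBX375 (LOC_Os10g06700, chromosome 10, 3468006 to 3469320, plus strand) measured 0.338, 0.551, 0.445 and 0.779 CPM at hot 6 h and 1.87, 1.08, 1.25 and 0.781 CPM at warm 6 h, with hot replicate 4 and warm replicate 4 nearly equal. Since 3 reads correspond to between 0.293 and 2.059 CPM across libraries, this gene lay near the limit of detection, and its change of -1.11 ± 0.34 (limma adjusted p = 0.0392) was lost without hot 6 h replicates 1, 2 or 3 or warm 6 h replicates 1, 2 or 3 (log2 change -1.16 to -0.91).

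Other falls at 6 h lay in members with no class code. LOC_Os11g38980 (chromosome 11, 23194769 to 23197390, minus strand), annotated as an F-box and kelch-repeat protein, measured 11.8, 10.1, 9.93 and 10.3 CPM in hot 6 h leaves and 23.5, 21.9, 21.3 and 19.9 CPM in warm 6 h leaves. Its groups were far apart for their spread, the change was -1.03 ± 0.20 (limma adjusted p = 0.00110), and all 8 fits with 1 library left out passed. LOC_Os12g36670 (chromosome 12, 22457228 to 22461984, plus strand), annotated as F-box and LRR-repeat protein 3, measured 42.2, 42.3, 39.1 and 38.6 CPM in hot 6 h leaves and 68.8, 47.8, 65.5 and 146 CPM in warm 6 h leaves. Its warm replicate 4 was far above the rest, and the change of -0.89 ± 0.24 (limma adjusted p = 0.0198) was lost without hot 6 h replicate 4 or warm 6 h replicate 4 (log2 change -0.86 and -0.57). At 2 h this gene was on the other side, at 97.6, 61.1, 68.8 and 77.2 CPM in hot leaves and 54.3, 52.7, 47.5 and 50.9 CPM in warm leaves. The log2 change of 0.55 ± 0.24 did not pass (limma adjusted p = 0.157).

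The 2 largest fitted rises at 6 h lay in genes with a mean log2 level below 0 and were singled out after their values were seen. LOC_Os04g21130 (chromosome 4, 11894682 to 11898544, plus strand), annotated as F-box protein PP2-B1, measured 14.5, 15.8, 3.41 and 13.8 CPM in hot 6 h leaves and 1.15, 0, 1.000 and 0.0976 CPM in warm 6 h leaves. The groups did not overlap, and the fitted log2 change of 4.92 ± 1.06 (limma adjusted p = 0.00292) depends on the 0.5 reads added to each count, because a warm library had no read. It passed in all 8 fits with 1 library left out. OsFBX415 (LOC_Os11g10300, chromosome 11, 5590632 to 5592453, minus strand) overlaps another gene on the same strand, so its reads are uncertain. It measured 0.226, 2.76, 3.11 and 1.17 CPM in hot 6 h leaves and 0.432, 0, 0 and 0 CPM in warm 6 h leaves, with overlapping groups, a fitted change of 3.48 ± 1.01 and a limma adjusted p of 0.0295, lost without hot 6 h replicates 2, 3 or 4 or warm 6 h replicates 2, 3 or 4 (log2 change 3.05 to 3.51).

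The remaining calls at 6 h were LOC_Os03g08850, annotated as AUXIN SIGNALING F-BOX 2, with a change of -0.94, OsFBX59 with -0.72, OsFBK22 with -0.58 and OsFBX113 with -0.35. They passed in 1 to 3 of the 8 fits that left out 1 library and are outside the rule for named genes. OsFBX59 overlaps a gene on the other strand. At 6 h the calls fell on 8 of the 167 FBX genes (1 higher, 7 lower), 3 of the 23 FBK genes, 2 of the 34 FBL genes, 1 of the 17 FBO genes and 5 of the 34 genes with no class code (1 higher, 4 lower).

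**Figure D3:**
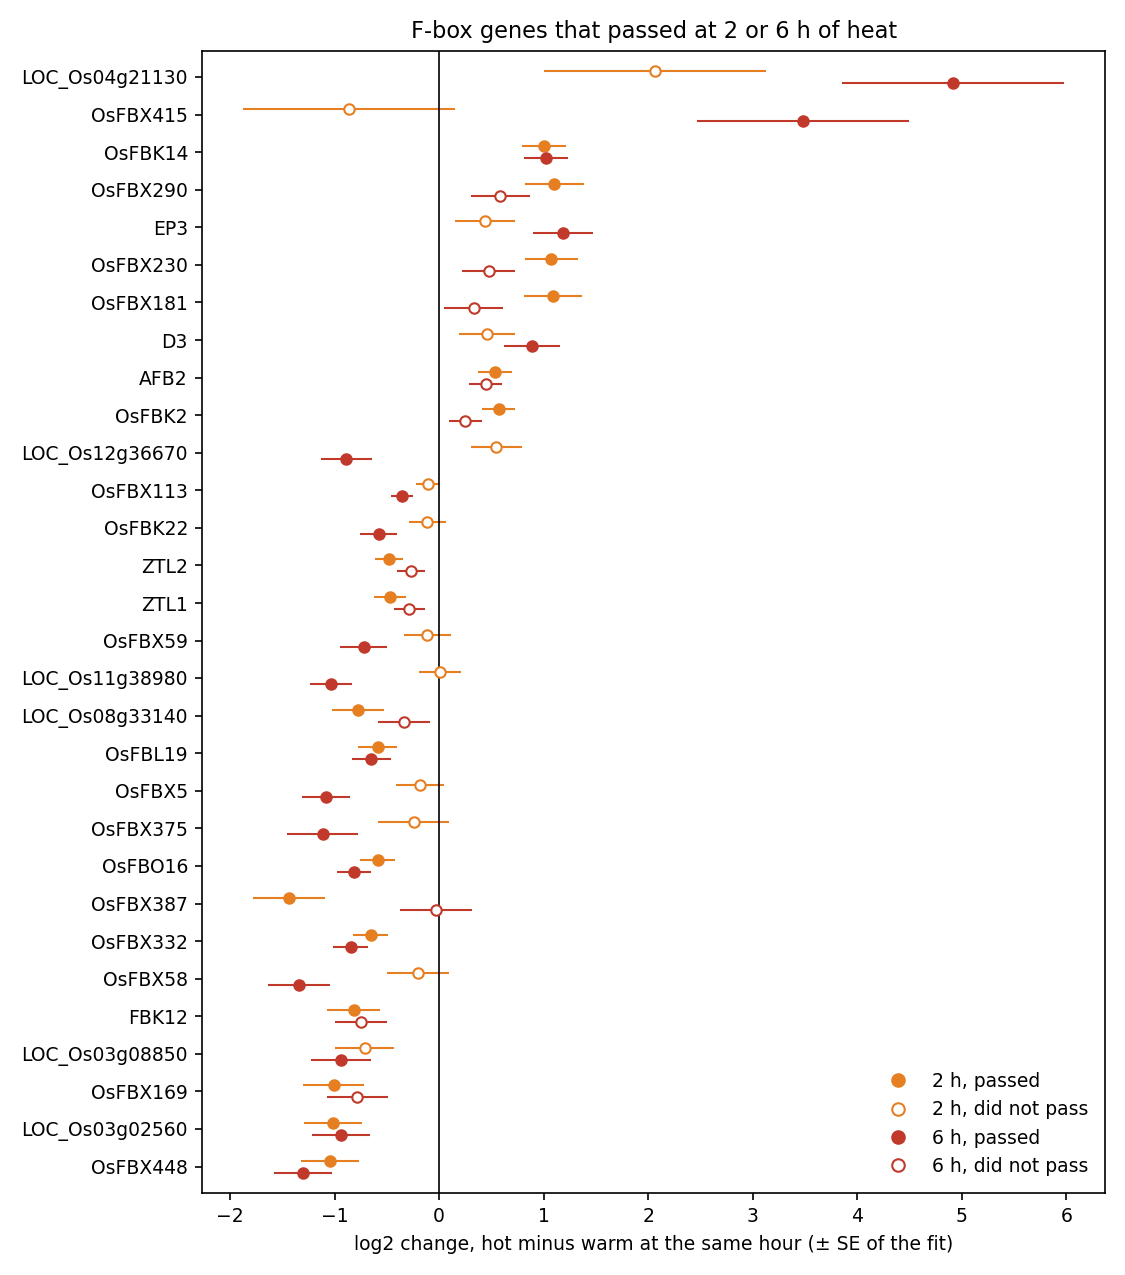
Log2 change ± SE (limma) of the 30 F-box genes that passed at 2 h or 6 h of heat against warm leaves of the same hour, with orange for 2 h, red for 6 h and filled points for changes that passed. The 17 genes that passed at 2 h all have the same sign at 6 h, and 16 of the 19 that passed at 6 h have the same sign at 2 h. The same tally was not made over all genes.

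Of the 30 genes that passed at 2 h or 6 h of heat, 6 passed at both, 35.3% of the 2 h calls and 31.6% of the 6 h calls. The same overlap was not counted over all genes, so whether it is particular to the F-box genes was not tested. These hours share no library, but lane moved with temperature at both. The 6 genes moved the same way at both hours, OsFBK14 upward and the other 5 downward. With lane as a term, only OsFBK14 of these genes passed at 2 h and none passed at 6 h. OsFBK14 measured 30.4, 32.9, 27.3 and 37.4 CPM in hot 6 h leaves and 18.99, 14.7, 14.3 and 14.7 CPM in warm 6 h leaves, a rise of 2.04-fold (log2 change 1.03 ± 0.21, limma adjusted p = 0.00180). Its fold was about the same at 2 h and 6 h, while its level at 6 h was several times lower in both conditions. OsFBX448 (LOC_Os12g32630, chromosome 12, 19684832 to 19687895, minus strand) measured 13.6, 14.6, 10.3 and 9.51 CPM in hot 2 h leaves and 24.3, 25.9, 21.8 and 25.9 CPM in warm 2 h leaves. At 6 h it measured 3.83, 1.84, 5.34 and 4.48 CPM in hot leaves and 10.5, 10.9, 9.75 and 5.86 CPM in warm leaves. Hot and warm libraries were apart at both hours, with changes of -1.04 ± 0.28 (limma adjusted p = 0.0169) at 2 h and -1.30 ± 0.28 (limma adjusted p = 0.00266) at 6 h. The 2 h call ended without hot 2 h replicates 3 or 4 (log2 change -0.98 and -0.94).

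LOC_Os03g02560 (chromosome 3, 945959 to 949062, plus strand), annotated as a cyclin-like F-box protein, measured 33.8, 30.8, 23.3 and 20.1 CPM in hot 2 h leaves and 43.8, 57.1, 56.7 and 57.7 CPM in warm 2 h leaves. At 6 h the values were 8.79, 4.59, 9.34 and 11.7 CPM in hot leaves and 15.1, 14.4, 22.01 and 12.6 CPM in warm leaves. It was lower in every hot library at both hours, with changes of -1.01 ± 0.28 (limma adjusted p = 0.0200) at 2 h and -0.94 ± 0.28 (limma adjusted p = 0.0330) at 6 h. The 2 h call ended without hot 2 h replicates 3 or 4 or warm 2 h replicates 3 or 4 (log2 change -0.98 to -0.88), and the 6 h call without hot 6 h replicates 1 or 2 or warm 6 h replicates 1 or 3 (log2 change -0.97 to -0.66).

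OsFBX332 (LOC_Os09g32240, chromosome 9, 19241002 to 19244486, minus strand) measured 48.5, 50.4, 44.6 and 40.5 CPM in hot 2 h leaves and 74.4, 68.5, 64.8 and 81.7 CPM in warm 2 h leaves. At 6 h it measured 24.2, 19.3, 33.5 and 27.8 CPM in hot leaves and 49.3, 47.5, 42.02 and 46.1 CPM in warm leaves. Both pairs of groups were apart, with changes of -0.65 ± 0.17 (limma adjusted p = 0.0132) and -0.84 ± 0.17 (limma adjusted p = 0.00126). The 2 h call ended without hot 2 h replicate 4 or warm 2 h replicate 4 (log2 change -0.59 and -0.59), and the 6 h call held in all 8 fits. OsFBO16 (LOC_Os03g49250, chromosome 3, 28045992 to 28048141, plus strand) had geometric means of 25.5 CPM in hot 2 h leaves and 38.2 CPM in warm 2 h leaves. This gave a change of -0.59 ± 0.17 (limma adjusted p = 0.0252). At 6 h they were 13.1 CPM in hot leaves and 23.1 CPM in warm leaves. The difference was -0.81 ± 0.17 (limma adjusted p = 0.00172). OsFBL19 (LOC_Os04g42670, chromosome 4, 25244008 to 25246628, minus strand), with leucine-rich repeats, measured 13.8 CPM in hot 2 h leaves and 20.7 CPM in warm 2 h leaves as geometric means. The fitted change was -0.59 ± 0.19 (limma adjusted p = 0.0442). Its change at 6 h was -0.65 ± 0.19 (limma adjusted p = 0.0282), with 10.6 CPM in hot leaves and 16.6 CPM in warm leaves. Hot and warm libraries of both genes were apart at each hour. The OsFBO16 call at 2 h ended without hot 2 h replicates 3 or 4 or warm 2 h replicates 3 or 4 (log2 change -0.58 to -0.50), that of OsFBL19 at 2 h without hot 2 h replicates 1, 3 or 4 or warm 2 h replicates 1, 3 or 4 (log2 change -0.62 to -0.47) and at 6 h without hot 6 h replicates 2, 3 or 4 or warm 6 h replicates 1 or 3 (log2 change -0.66 to -0.61).

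**Figure D4:**
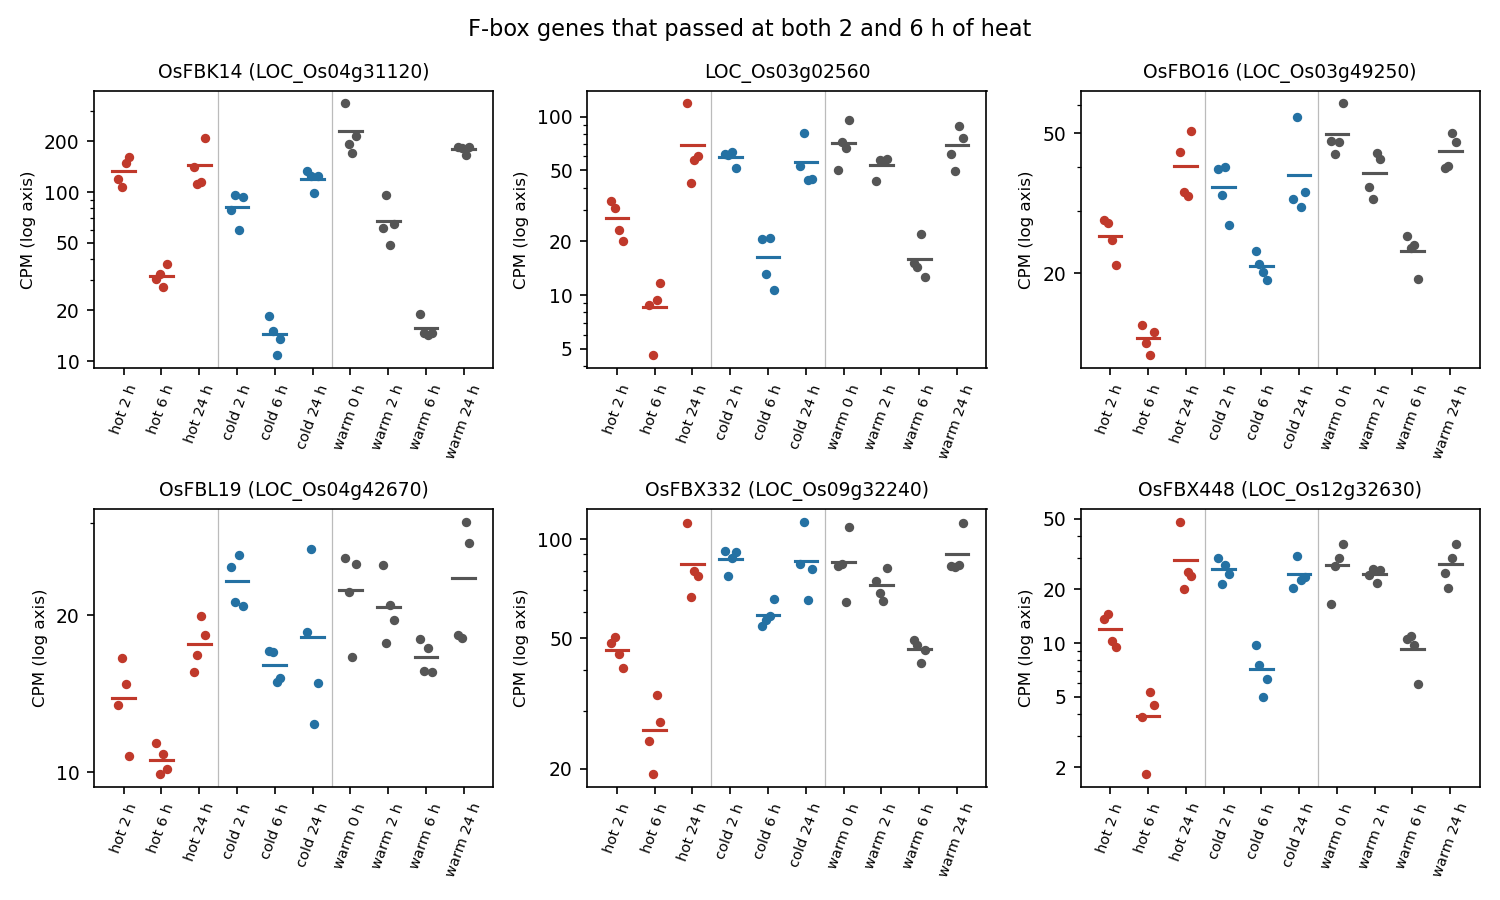
Level in CPM (log axis) per library of the 6 F-box genes that passed at both 2 h and 6 h of heat, in the hot, cold and warm groups, with bars at the group mean (n = 4). OsFBK14 lies above warm in hot leaves at 2 h (107 to 162 against 48.7 to 95.7 CPM) and 6 h (27.3 to 37.4 against 14.3 to 18.99 CPM), and the other 5 lie below it.

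After 24 h of heat none of the 321 F-box genes passed against warm 24 h leaves, and 0% of all genes did. At an unadjusted p under 0.05 there were 28 F-box genes (8.72%, against 6.25% of all genes). The smallest adjusted p of an F-box gene was 0.279, and limma with voom weights also called 0. Hot 24 h libraries correlated less with each other than hot 6 h libraries did, so the lack of calls does not show stable levels. The changes of the 6 genes called at both earlier hours were -0.37 for OsFBK14, -0.38 for OsFBL19, -0.15 for OsFBO16, -0.11 for OsFBX332, -0.06 for LOC_Os03g02560 and 0.02 for OsFBX448. OsFBK14 measured 139.98, 111, 115 and 209.9 CPM in hot 24 h leaves and 186, 183, 166 and 186 CPM in warm 24 h leaves, so the groups overlapped and most hot libraries were the lower ones.

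The difference between the hot responses at 24 h and 2 h was itself tested. It passed in 4 of the 321 F-box genes and in 161 of all 19308 genes. The response at 24 h minus that at 2 h was -1.38 ± 0.30 on the log2 scale for OsFBK14 (limma adjusted p = 0.0204), -1.78 ± 0.40 for OsFBX181 (limma adjusted p = 0.0229) and -1.54 ± 0.36 for OsFBX230 (limma adjusted p = 0.0292). OsFBX327, which was singled out after its values were seen, differed the other way by 1.33 ± 0.34 (limma adjusted p = 0.0446). It measured 22.7, 11.7, 10.7 and 21.2 CPM in hot 24 h leaves and 7.91, 12.5, 6.18 and 9.37 CPM in warm 24 h leaves, against 10.6, 12.5, 11.003 and 10.3 CPM in hot 2 h leaves and 11.1, 15.5, 22.98 and 15.5 CPM in warm 2 h leaves. For the cold responses no gene passed, and the smallest adjusted p among F-box genes was 0.908 (limma).

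The second question was which F-box genes change in leaves moved to the cold side, and no F-box gene passed at 2, 6 or 24 h against warm leaves of the same hour. The same holds for all genes of the table, 0% at each hour, and limma with voom weights called 0 F-box genes as well. At an unadjusted p under 0.05 there were 34, 14 and 23 F-box genes at 2, 6 and 24 h. These were 10.6%, 4.36% and 7.17% of the F-box genes, against 6.48%, 4.5% and 7.55% of all genes. The smallest adjusted p-values of F-box genes were 0.392, 0.744 and 0.575, and their median changes were -0.005, 0.048 and -0.017. Cold and warm libraries did not overlap for 22 F-box genes at 2 h (6.85%, against 4.28% of all genes), 22 at 6 h (6.85%, against 5.55%) and 9 at 24 h (2.8%, against 4.16%). Warm and cold libraries share no lane, so lane and temperature cannot be told apart here.

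The members with the smallest p in the cold were singled out after their values were seen, apart from OsFBT6. OsFBT6 (LOC_Os04g59130, chromosome 4, 35176146 to 35179799, plus strand), a tubby-domain gene, measured 36.1, 46.1, 47.02 and 48.8 CPM in cold 2 h leaves and 20.7, 35.7, 28.7 and 26.997 CPM in warm 2 h leaves. All 4 cold libraries were above all 4 warm ones, with a change of 0.68 ± 0.17 (limma adjusted p = 0.392). OsFBX76 (LOC_Os03g02550, chromosome 3, 942694 to 945066, plus strand) measured 6.27, 7.51, 10.7 and 13.1 CPM in cold 6 h leaves and 3.88, 4.58, 4.75 and 4.59 CPM in warm 6 h leaves. The gene changed by 1.01 ± 0.30 (limma adjusted p = 0.744). OsFBX402 (LOC_Os11g09478, chromosome 11, 5091195 to 5094941, minus strand) measured 0.708, 1.28, 0.550 and 0.852 CPM in cold 24 h leaves and 0.527, 0.195, 0 and 0 CPM in warm 24 h leaves, near the 3-read floor. Of the genes that passed at both hours of heat, OsFBK14 had changes of 0.29, -0.13 and -0.59 in the cold at 2, 6 and 24 h, and OsFBX448 had 0.07, -0.37 and -0.18.

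Hot and cold leaves were also compared with each other at each hour, across the widest temperature step of the design. At 2 h, 50 of the 321 F-box genes (15.6%) passed, 25 higher and 25 lower in hot leaves, where 15.1% of all genes passed, 6.73% higher and 8.32% lower. The auxin receptors moved in opposite directions, since AFB2 was higher and TIR1 lower in hot leaves, while D3 was higher and both ZTL genes and FBK12 were lower. The classes with most calls were FBX with 19 of 167 (8 higher, 11 lower), FBL with 8 of 34 (5 higher, 3 lower), FBK with 5 of 23 (4 higher, 1 lower), FBO with 4 of 17 (1 higher, 3 lower) and FBT with 3 of 12, besides 10 of the 34 genes with no class code. This comparison shares its hot libraries with the one against warm leaves, so they are not independent.

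AFB2 measured 42.01, 38.5, 46.2 and 45.7 CPM in hot 2 h leaves and 19.5, 24.7, 28.8 and 33.5 CPM in cold 2 h leaves. Its change was 0.72 ± 0.16 (limma adjusted p = 0.00209). TIR1 measured 57.01, 46.6, 58.9 and 49.9 CPM in hot 2 h leaves and 88.3, 88.4, 103 and 84.5 CPM in cold 2 h leaves. The change came to -0.78 ± 0.21 (limma adjusted p = 0.00937). Neither gene overlapped between the groups, and both calls held in all 8 fits with 1 library left out. D3 measured 35.2, 24.6, 32.4 and 40.4 CPM in hot 2 h leaves and 9.21, 18.2, 16.7 and 24.3 CPM in cold 2 h leaves. All hot libraries were above all cold ones, with a change of 1.01 ± 0.27 (limma adjusted p = 0.00911), lost without cold 2 h replicate 1 (log2 change 0.74).

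ZTL2 measured 109.8, 127, 120.1 and 109.5 CPM in hot 2 h leaves and 207, 139, 152 and 197 CPM in cold 2 h leaves. Its change was -0.56 ± 0.13 (limma adjusted p = 0.00399), and that of ZTL1 was -0.54 ± 0.15 (limma adjusted p = 0.0119). Neither gene overlapped between hot and cold, and the ZTL1 call ended without cold 2 h replicates 1 or 4 (log2 change -0.48 and -0.44). FBK12 measured 41.8, 62.7, 45.7 and 41.04 CPM in hot 2 h leaves and 85.6, 91.3, 96.2 and 78.8 CPM in cold 2 h leaves. The log2 change of -0.90 ± 0.25 (limma adjusted p = 0.0128) was lost without hot 2 h replicate 4 (log2 change -0.83).

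The largest rises among members with a mean log2 level of at least 0 were those of LOC_Os12g01760, LOC_Os04g11440, OsFBO21 and OsFBX278. OsFBO21 (LOC_Os09g27660, chromosome 9, 16829409 to 16837307, plus strand) measured 76.7, 48.8, 105 and 109.5 CPM in hot 2 h leaves and 17.1, 23.7, 22.6 and 47.2 CPM in cold 2 h leaves. The highest cold library only just stayed below the lowest hot one, and the rise was 3.14-fold (log2 change 1.65 ± 0.40, limma adjusted p = 0.00503), held in all 8 fits with 1 library left out. Against warm leaves of the same hour OsFBO21 changed by 1.24 in the heat (limma adjusted p = 0.0507) and by -0.41 in the cold (limma adjusted p = 0.926), and these share the warm controls. LOC_Os12g01760 (chromosome 12, 464682 to 468351, plus strand) measured 2.79, 3.56, 5.97 and 4.35 CPM in hot 2 h leaves and 2.35, 0.198, 0.384 and 1.43 CPM in cold 2 h leaves. This gave a change of 2.26 ± 0.66 (limma adjusted p = 0.0169), lost without hot 2 h replicate 3 or cold 2 h replicates 2 or 3 (log2 change 1.75 to 2.07). LOC_Os04g11440 (chromosome 4, 6255954 to 6258351, minus strand), annotated with an F-box interaction domain, measured 0.872, 1.42, 0.746 and 1.90 CPM in hot 2 h leaves and 0.542, 0.395, 0 and 0.204 CPM in cold 2 h leaves. Its change was 2.01 ± 0.60 (limma adjusted p = 0.0204), lost without hot 2 h replicate 4 or cold 2 h replicate 3 (log2 change 1.79 and 1.44), and both groups lay near the 3-read floor. OsFBX278 (LOC_Os08g10340, chromosome 8, 6055587 to 6059017, plus strand) measured 1.74, 1.78, 3.92 and 2.99 CPM in hot 2 h leaves and 0.361, 1.38, 0.576 and 1.02 CPM in cold 2 h leaves. The difference was 1.59 ± 0.49 (limma adjusted p = 0.0241), lost without hot 2 h replicates 3 or 4 or cold 2 h replicates 1 or 3 (log2 change 1.29 to 1.51).

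The largest falls in hot relative to cold leaves at 2 h, again among members with a mean log2 level of at least 0, were in OsFBX169 (-1.31, limma adjusted p = 0.00217), LOC_Os03g02560 (-1.17, adjusted p = 0.00391), OsFBX448 (-1.12, adjusted p = 0.00546) and OsFBX387 (-1.03, adjusted p = 0.0365). OsFBX169 measured 1.74, 3.38, 3.54 and 2.45 CPM in hot 2 h leaves and 8.48, 6.72, 5.18 and 6.94 CPM in cold 2 h leaves. OsFBX387 measured 1.92, 2.14, 1.31 and 2.04 CPM in hot 2 h leaves and 3.79, 2.37, 3.65 and 6.33 CPM in cold 2 h leaves. None of these 4 genes overlapped between the groups, and of the 4 calls only that of OsFBX387 was lost when 1 library was left out, without hot 2 h replicates 1, 3 or 4 or cold 2 h replicates 1, 3 or 4 (log2 change -1.08 to -0.79). With lane as a term 24 F-box genes passed in all, and 27 of the 50 calls were lost, while leaving out 1 library gave 26 to 48 calls, fewest without hot 2 h replicate 4. Within lane 3, with 2 hot libraries and 1 cold one, the median size of the 50 changes was 1.03 against 0.87 over all lanes, a description from libraries that gave the calls.

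At 6 h, 23 of the 321 F-box genes (7.17%) passed between hot and cold leaves, 3 higher and 20 lower in hot leaves, where 8.28% of all genes passed, 3.17% higher and 5.11% lower. The split moved with the settings, to 9 higher and 20 lower with CPM plus 1, 6 and 22 with quantile scaling, 10 and 18 with voom weights and 24 and 42 with only these groups in the fit. OsFBK14 measured 30.4, 32.9, 27.3 and 37.4 CPM in hot 6 h leaves and 18.6, 15.2, 10.8 and 13.5 CPM in cold 6 h leaves. The fitted change was 1.15 ± 0.21 (limma adjusted p = 0.000418). OsFBL35 (LOC_Os07g06670, chromosome 7, 3251100 to 3255281, plus strand) measured 7.89, 6.61, 8.75 and 5.84 CPM in hot 6 h leaves and 3.47, 4.31, 4.23 and 3.24 CPM in cold 6 h leaves. The gene changed by 0.91 ± 0.20 (limma adjusted p = 0.00280). Hot libraries of both genes were all above the cold ones, and the third rise was that of the low-level LOC_Os04g21130. OsFBX332 measured 24.2, 19.3, 33.5 and 27.8 CPM in hot 6 h leaves and 54.3, 56.6, 58.5 and 65.9 CPM in cold 6 h leaves, the smallest adjusted p of the comparison among F-box genes (change -1.19 ± 0.17, limma adjusted p = 1.22e-05). LOC_Os11g38980 measured 11.8, 10.1, 9.93 and 10.3 CPM in hot 6 h leaves and 26.4, 21.003, 29.3 and 29.5 CPM in cold 6 h leaves (change -1.32 ± 0.20, limma adjusted p = 4.66e-05). Both were apart in every library, as was OsFBX5, at 34.2, 26.1, 28.5 and 25.5 CPM in hot 6 h leaves and 57.4, 56.7, 70.2 and 58.2 CPM in cold 6 h leaves (change -1.09 ± 0.23, limma adjusted p = 0.00200). These 5 calls held in all 8 fits with 1 library left out.

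OsFBX227 (LOC_Os07g12610, chromosome 7, 7206342 to 7209537, minus strand) had the largest fitted fall at 6 h, at 2.14, 8.45, 5.63 and 1.56 CPM in hot 6 h leaves and 15.2, 6.26, 14.6 and 16.2 CPM in cold 6 h leaves. The groups overlapped through hot replicate 2 and cold replicate 2, and the change of -1.75 ± 0.48 (limma adjusted p = 0.0170) was lost without hot 6 h replicates 1 or 4 or cold 6 h replicates 1, 3 or 4 (log2 change -1.67 to -1.37). ZTL2 and ZTL1 were lower in hot leaves at 6 h too, with changes of -0.65 ± 0.13 (limma adjusted p = 0.00157) and -0.52 ± 0.15 (adjusted p = 0.0250). The ZTL1 call was lost without hot 6 h replicates 1, 2 or 3 or cold 6 h replicates 2 or 3 (log2 change -0.52 to -0.45). With lane as a term 9 of the 23 calls were lost. Within lane 3, with 3 hot libraries and 1 cold one, the 23 changes had a median size of 0.87 against 0.84 over all lanes, likewise only a description. At 24 h none of the F-box genes passed between hot and cold leaves, nor did any gene of the table (0%). There were 20 F-box genes at an unadjusted p under 0.05 (6.23%, against 7.61% of all genes). The smallest adjusted p of an F-box gene was 0.509, and limma with voom weights called 0. Without hot 24 h replicate 2, however, 5 of the 321 F-box genes passed, all lower in hot leaves, and 423 of all 19308 genes did. Without hot 24 h replicate 1, the library with the lowest correlation in this group, 0 passed.

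The warm groups show how the F-box genes vary over the hours with no temperature shift. A moderated F test over warm 0, 2, 6 and 24 h was passed by 133 of the 321 genes (41.4%), against 44.7% of all genes. Of the 133 genes 95 (71.4%) spanned at least 2-fold between their highest and lowest group, against 72.3% of all genes that passed. Most peaked at 6 h, 68 of 133 (51.1%, against 45.6% of all genes), then at 0 h with 37 (27.8%, against 29.2%), at 24 h with 17 (12.8%, against 14.3%) and at 2 h with 11 (8.27%, against 10.8%). Their lowest level fell at 0 h in 50 genes (37.6%, against 38.3% of all genes that passed) and at 6 h in 49 (36.8%, against 38.4%). It fell at 24 h in 28 (21.1%, against 12.6%) and at 2 h in 6 (4.51%, against 10.7%), and these shares were not tested against each other. Among the FBX genes that passed, 40 of 66 peaked at 6 h, whereas of the 13 FBK genes 7 peaked at 0 h and 4 at 24 h.

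OsFBT6 had its peak at 6 h. It measured 19.1, 13.2, 20.8 and 19.7 CPM at warm 0 h, 20.7, 35.7, 28.7 and 26.997 CPM at 2 h, 116, 169, 149 and 137 CPM at 6 h and 15.3, 20.8, 21.3 and 14.6 CPM at 24 h (limma F test, adjusted p = 9.59e-17). The 6 h libraries were all far above those of the other hours, and the 24 h values were back within the range of 0 h and 2 h. OsFBK14 had the opposite course, with 336, 191, 170.2 and 216 CPM at warm 0 h, 61.5, 95.7, 48.7 and 65.1 CPM at 2 h, 18.99, 14.7, 14.3 and 14.7 CPM at 6 h and 186, 183, 166 and 186 CPM at 24 h (limma F test, adjusted p = 9.43e-17). Its 0 h, 2 h and 6 h groups followed each other downward with no overlap. OsFBX5 measured 242, 482, 483 and 559.9 CPM at warm 0 h, 171, 199, 194 and 212 CPM at 2 h, 56.5, 80.8, 80.3 and 35.7 CPM at 6 h and 400.2, 416, 455 and 547 CPM at 24 h (limma F test, adjusted p = 8.20e-13). OsFBK17 (LOC_Os06g44500, chromosome 6, 26876995 to 26878985, minus strand) measured 44.6, 69.1, 84.3 and 67.7 CPM at warm 0 h, 53.8, 39.2, 59.997 and 34.3 CPM at 2 h, 15.8, 8.89, 16.3 and 8.69 CPM at 6 h and 69.96, 65.8, 98.8 and 71.6 CPM at 24 h (limma F test, adjusted p = 4.55e-12). Both had their lowest libraries at 6 h.

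**Figure D5:**
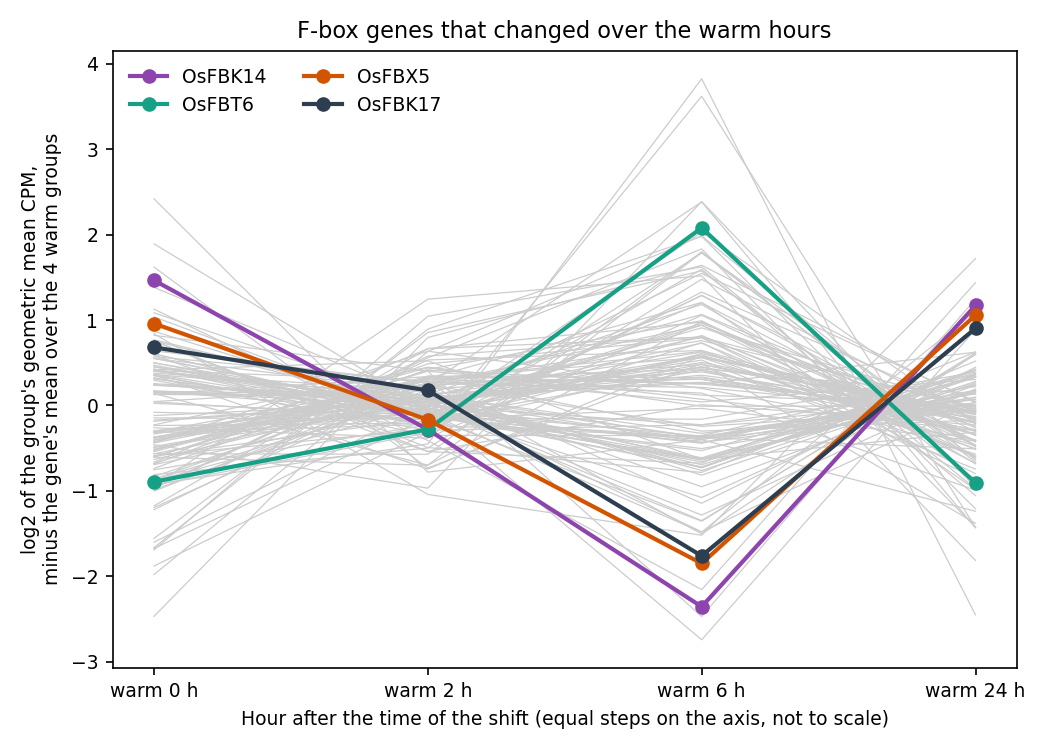
Course over the warm hours (0, 2, 6 and 24 h) of the 133 F-box genes that passed the F test, as log2 geometric mean CPM minus the gene's mean over the 4 warm groups, with 4 genes in colour. OsFBT6 rises to 6 h while OsFBK14, OsFBX5 and OsFBK17 have their lowest point there.

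Of the 30 genes that passed at 2 h or 6 h of heat, 13 (43.3%) passed the warm F test, against 120 of the other 291 (41.2%). The widest spans over the warm hours, singled out after their values were seen, were 6.27 and 5.497 on the log2 scale, for OsFBX378 and OsFBK8, both with their peak at 6 h. OsFBX378 measured 3.03, 0.1996, 0 and 0 CPM at warm 0 h, 0.503, 0.633, 0 and 0.703 CPM at 2 h, 6.47, 7.41, 10.8 and 12.1 CPM at 6 h and 0, 0, 0 and 0 CPM at 24 h. OsFBK8 measured 0, 0, 0 and 0 CPM at warm 0 h, 0.126, 0.158, 0.597 and 0.281 CPM at 2 h, 4.03, 4.98, 11.01 and 2.73 CPM at 6 h and 0, 0, 0 and 0.123 CPM at 24 h. Since both have groups at 0 or near the 3-read floor, their fitted spans depend on the 0.5 reads added to each count.

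Warm leaves at 24 h and 0 h were taken at the same time of day, so this comparison shows what differs between days. Of the 321 F-box genes 11 (3.43%) passed, 3 higher and 8 lower at 24 h, where 2.92% of all genes passed, 1.58% higher and 1.34% lower. With quantile scaling 7 passed, 1 higher and 6 lower. EP3 measured 13.01, 15.8, 9.61 and 17.9 CPM at warm 24 h and 75.1, 30.5, 23.8 and 27.8 CPM at warm 0 h. Its change was -1.34 ± 0.29 (limma adjusted p = 0.0113). The groups did not overlap, with warm 0 h replicate 1 far above its group, and the call ended without warm 24 h replicate 3 or warm 0 h replicate 1 (log2 change -1.18 and -0.98). D3 measured 17.1, 29.8, 14.4 and 20.5 CPM at warm 24 h and 59.5, 32.9, 42.7 and 30.97 CPM at warm 0 h. The change came to -1.02 ± 0.27 (limma adjusted p = 0.0332), also without overlap and lost without warm 24 h replicates 1, 3 or 4 or warm 0 h replicate 1 (log2 change -1.04 to -0.83). LOC_Os12g36670 measured 62.05, 68.7, 59.02 and 64.6 CPM at warm 24 h and 149, 106, 123 and 128 CPM at warm 0 h. The log2 change was -0.98 ± 0.24 (limma adjusted p = 0.0236), lost without warm 24 h replicates 1, 3 or 4 or warm 0 h replicate 1 (log2 change -0.99 to -0.90).

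The largest differences between the warm days lay in LOC_Os11g01780 (chromosome 11, 417564 to 421226, plus strand) and LOC_Os12g01760, genes for leucine-rich repeat F-box proteins near the ends of chromosomes 11 and 12. Those ends are duplicates of each other in rice, so reads may be shared between such genes and their values are uncertain. LOC_Os11g01780 measured 1.58, 1.95, 0.686 and 1.23 CPM at warm 24 h and 54.6, 5.19, 39.7 and 9.86 CPM at warm 0 h. This gave a change of -3.66 ± 0.71 (limma adjusted p = 0.00613), lost without warm 0 h replicate 1 (log2 change -3.13). LOC_Os12g01760 measured 1.76, 0.584, 0 and 1.48 CPM at warm 24 h and 25.4, 2.20, 8.08 and 5.51 CPM at warm 0 h. The value of 0 was in warm 24 h replicate 3, the library with the fewest reads, where 3 reads stood for 2.059 CPM. The difference was -3.00 ± 0.66 (limma adjusted p = 0.0124), lost without warm 24 h replicate 3 or warm 0 h replicate 1 (log2 change -2.53 and -2.39). The warm 0 h libraries of both genes spread over a wide range, highest in replicate 1. Without that library, which stood apart from its group, 1 F-box gene passed between the warm days, and it was not among the 11.

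The other listed hormone genes, COI1a, COI1b, EBF1 and EBF2, did not pass in any shift. LOC_Os03g08850, annotated as AUXIN SIGNALING F-BOX 2 but not on that list, passed at 6 h of heat, where it was lower. It was also lower in hot 6 h than in cold 6 h leaves. That call held in 5 of the 8 fits with 1 library left out (log2 change -1.21 to -0.93 over the 8). COI1a (LOC_Os01g63420, chromosome 1, 36746807 to 36750976, plus strand) and COI1b (LOC_Os05g37690, chromosome 5, 22060723 to 22063865, plus strand) encode jasmonate receptors. COI1a measured 37.5, 46.7, 36.8 and 42.4 CPM in hot 6 h leaves and 44.9, 50.2, 47.5 and 58.7 CPM in warm 6 h leaves. The fitted change was -0.30 ± 0.14 (limma adjusted p = 0.198). Hot replicates 1, 3 and 4 were below every warm library, and the groups overlapped through hot replicate 2. It did vary over the warm hours (limma F test, adjusted p = 4.95e-05), with 61.1, 86.01, 65.1 and 99.1 CPM at 0 h, 62.1, 65.5, 58.5 and 71.1 CPM at 2 h, 44.9, 50.2, 47.5 and 58.7 CPM at 6 h and 92.8, 86.02, 86.5 and 84.96 CPM at 24 h. COI1b measured 168, 166, 182 and 185 CPM in hot 2 h leaves and 119.7, 166, 151 and 127 CPM in warm 2 h leaves. The gene changed by 0.33 ± 0.16 with barely overlapping groups (limma adjusted p = 0.202).

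EBF2 (LOC_Os02g10700, chromosome 2, 5628039 to 5631315, minus strand) and EBF1 (LOC_Os06g40360, chromosome 6, 24033673 to 24036841, plus strand) belong to the type that targets the EIN3 transcription factors of ethylene signalling in Arabidopsis. EBF2 measured 198, 218, 280.1 and 298 CPM in hot 2 h leaves and 312, 567, 367 and 360.4 CPM in warm 2 h leaves. The hot libraries were all below the warm ones, but the change of -0.68 ± 0.28 did not pass (limma adjusted p = 0.126). EBF1 measured 48.3, 45.8, 35.99 and 32.9 CPM in hot 2 h leaves and 37.97, 52.5, 34.03 and 42.9 CPM in warm 2 h leaves, with overlapping groups and a change of -0.04 ± 0.20 (limma adjusted p = 0.935). MAIF1 (LOC_Os02g44990, chromosome 2, 27248697 to 27251470, plus strand), an F-box gene linked to abiotic stress and root growth in rice, was at the limit of detection, with 1.57, 0.178, 0.746 and 0.951 CPM in hot 2 h leaves and 0.503, 0.475, 0.895 and 0.422 CPM in warm 2 h leaves. In warm 0 h leaves it measured 20.3, 1.40, 0.231 and 1.15 CPM, where replicate 1 was far above the others.

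The partners of F-box proteins were counted in the same way. Of 21 genes of the SCF core and its regulators (SKP1, cullin, SGT1, NEDD8-activating enzyme and COP9 signalosome genes), 0 passed in the 6 shifts against warm leaves, with medians of 0.11 and 0.08 at 2 h and 6 h of heat against 0.01 and -0.04 over all genes. Between hot and cold leaves at 2 h 2 of them passed, both higher in hot leaves, a SKP1 gene (LOC_Os12g40300, change 1.26, limma adjusted p = 0.0116) and COP9 subunit 8 (LOC_Os04g34930, change 0.54, limma adjusted p = 0.0448). Of all genes 15.1% passed in that comparison. Of the 21 genes, 6 passed the F test over the warm hours, where 44.7% of all genes passed.

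Among the substrates, 1 of 18 AUX/IAA repressors, the proteins that auxin receptors mark for degradation, passed at 2 h of heat and 1 at 6 h. Of all genes 8.2% and 6.9% passed at these hours. OsIAA3 (LOC_Os01g13030) changed by -0.54 at 2 h (limma adjusted p = 0.0471) and OsIAA25 (LOC_Os08g01780) by -1.12 at 6 h (limma adjusted p = 1.02e-05). Between hot and cold leaves at 2 h 3 of the 18 passed, 2 higher and 1 lower, where 15.1% of all genes passed. None of 5 ZIM-domain repressors, the class that COI1 acts on, passed against warm leaves. Between hot and cold leaves at 2 h 1 of the 5 passed, LOC_Os08g33160, lower in hot leaves by a change of -0.90 (limma adjusted p = 0.0198), and the median of the 5 was -0.89. Of 5 further hormone receptors and substrates, 2 passed at both 2 h and 6 h of heat. The gibberellin receptor GID1 (LOC_Os05g33730) changed by -0.96 at 2 h and -0.72 at 6 h, and SLR1 (LOC_Os03g49990), the DELLA protein degraded in gibberellin signalling, by -0.79 and -0.71. Between hot and cold leaves 2 of the 5 passed at 2 h, 1 higher and 1 lower in hot leaves, and 1 at 6 h, lower. Of all genes 15.1% and 8.28% passed in these comparisons. D14 (LOC_Os03g10620), the strigolactone receptor that works with D3, was higher in hot than in cold leaves at 2 h by 1.49 on the log2 scale. The F test over the warm hours was passed by 13 of the 18 AUX/IAA genes, 2 of the 5 ZIM-domain genes and 1 of the 5 further genes, against 44.7% of all genes.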

How the data were processed

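Gene expression was measured by total RNA sequencing of rice IR64 leaves in 40 libraries, 4 in each of 10 groups, with 61-cycle single-end reads. The authors deposited a single table of log2 values per gene and library, in the form limma voom writes, log2 of CPM with 0.5 reads added to each count. The submitters' processing notes name limma 3.20.1 and edgeR 3.4.2, featureCounts 1.5.0-p1 and Subread 1.5.0-p1, bedtools and SAMtools 1.1-26, FastQC 0.11.2 and bcl2fastq, and the build IRGSP-1.0. For the strand setting, the filter and the scaling, a statement is not given in the sources used here. As a limit, reads of paralogs or overlapping genes may be shared.

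Read counts were recovered from the deposited log2 values, where 100% of values in every library came out whole within 0.001. These counts gave the CPM per library, and 3 reads stood for 0.293 to 2.059 CPM. Floors cover counting error only, since reads carry no molecular identifiers. A single limma 3.58.1 model of the 10 groups (R 4.3.3, trend and robust empirical Bayes) was fitted to the log2 values of all 19308 genes, with two-sided tests and Benjamini-Hochberg adjustment over all genes at 0.05. Tables and plots were made with matplotlib 3.10.9, numpy 2.4.6 and pandas 2.3.3 in Python 3.11.15.

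Genes were named by rule. It takes the known hormone, light and development F-box genes, the 4 largest rises and 4 largest falls per comparison among genes that passed with a mean log2 of at least 0, the 4 smallest p in each warm comparison and the 3 highest levels. The members, lists and rule were chosen with earlier results of these data known. Of the listed genes, GID2 and COI2 are not annotated as F-box proteins in the table and were not counted. Alternatives were another offset on the log scale (CPM plus 1), filters, quantile scaling, voom weights, lane or replicate number as a term, fits of only the groups compared and leaving out libraries. Over 40 pairs of libraries with the same replicate number in 10 comparisons, the correlation of deviations from the group means was -0.29 to 0.27. In 0 comparisons were all pairs over 0.1. Only warm 24 h minus warm 0 h lay within a temperature, so pairing across the other warm hours was not tested. The labels do not tie replicate numbers to tanks or plants, and the numbers were therefore not used in the fit. Sequences are not printed, since no reference with these locus identifiers was used here.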

Additional observations from a re-analysis of the deposited data

Results flagged for a closer look

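Among 350 sets of 4 libraries, each a named F-box gene in a group, 18 held a single library far from the other 3, and chance gives about 5% of such sets. Among the known hormone, light and development genes the flagged libraries were EBF2 in warm 0 h replicate 1 (1028 CPM), TIR1 in the same library (82.8 CPM), EP3 in cold 6 h replicate 2 (6.95 CPM), FBK12 in cold 6 h replicate 1 (43.9 CPM), D3 in cold 6 h replicate 1 (26.4 CPM) and EBF1 in hot 6 h replicate 2 (34.4 CPM). Warm 0 h replicate 1 is the library that stood apart from its group over all genes.

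OsFBK14 stood apart in warm 6 h replicate 1 (18.99 CPM) and warm 24 h replicate 3 (166 CPM), and OsFBX58 in warm 0 h replicate 4 (139 CPM) and warm 24 h replicate 2 (102 CPM). Single libraries also stood apart for OsFBX448 in warm 6 h replicate 4 (5.86 CPM), LOC_Os03g02560 in warm 2 h replicate 1 (43.8 CPM), OsFBX332 in warm 24 h replicate 4 (112 CPM) and LOC_Os11g01780 in warm 2 h replicate 2 (3.01 CPM). In the cold groups these were OsFBX5 in cold 6 h replicate 3 (70.2 CPM), OsFBX227 in cold 6 h replicate 2 (6.26 CPM), OsFBX290 in cold 24 h replicate 3 (4.81 CPM) and OsFBX181 in cold 24 h replicate 1 (2.41 CPM).

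The heat response differed between 24 h and 2 h, by a test of that difference, in 3 named genes. The 24 h change minus the 2 h change was -1.38 for OsFBK14, -1.78 for OsFBX181 and -1.54 for OsFBX230 on the log2 scale.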

How the results depend on the processing

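The 120 changes of F-box genes that passed in a comparison of 2 groups were refitted 1913 times under the alternatives, and 494 of these refits no longer passed while 0 turned the sign. The 66 changes of the known hormone, light and development genes that had not passed against warm leaves were refitted 1056 times. Of these refits 10 passed and 65 turned the sign without passing. The zeros at hot 24 h, cold 2, 6 and 24 h against warm leaves stayed 0 under every alternative, those that left out a library included. The counts moved by more than 1.5 times in the following cases, and the cause was not tested. With lane as a term 4 F-box genes passed at hot 2 h, 0 at hot 6 h, 24 in hot 2 h minus cold 2 h and 6 in warm 24 h minus warm 0 h. With only the groups compared in the fit the F-box counts were 26 at hot 2 h, 37 at hot 6 h, 66 in hot 6 h minus cold 6 h and 0 between the warm days. Over all genes they were 2639, 2793, 4365 and 1. Leaving out both libraries that stood apart was an alternative chosen after seeing the data. It gave 31 F-box genes at hot 2 h and 31 at hot 6 h. In hot 6 h minus cold 6 h it gave 36, and between the warm days 3. Over all genes it gave 2705, 2110, 2384 and 110. Between the warm days quantile scaling gave 7 F-box genes and voom weights 3, against 337 and 217 of all genes.

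Leaving out 1 library in turn gave 5 to 18 calls at hot 2 h (10, 7 and 5 without hot replicates 1, 3 and 4, and 7 without warm replicate 4) and 11 to 19 at hot 6 h (12, 12 and 11 without hot replicates 1, 2 and 3, and 11 without warm replicate 1). It gave 26 to 48 F-box calls in hot 2 h minus cold 2 h (29 and 26 without hot replicates 3 and 4, and 27 without cold replicate 3) and 14 to 19 in hot 6 h minus cold 6 h (15 without hot replicate 2 and 14 without cold replicate 4). Over all genes these ranges were 1664 to 2849 and 1009 to 1312. In hot 24 h minus cold 24 h it gave 0 to 5 F-box calls, with 5 without hot 24 h replicate 2, in the warm F test 109 to 139, and between the warm days 1 to 15 (1 without warm 0 h replicate 1, 4, 1 and 3 without warm 24 h replicates 1, 3 and 4). Over all genes these ranges were 0 to 423, 7660 to 8925 and 42 to 1507. With a replicate block, whose numbers the labels do not tie to tanks or plants, the F-box counts were 17 at hot 2 h and 18 at hot 6 h. They were 49 and 24 between hot and cold leaves at 2 h and 6 h, 130 in the F test, 9 between the warm days and 0 elsewhere. Over all genes the block gave 1613, 1345, 2881, 1620, 8586 and 536 in the same order. Of the 40 members below a mean log2 of 0, changes rest on few reads.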
